A study of Mus musculus with 8 samples.

Results

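Müller glia (MG) span the neural retina from its inner to its outer border and support the neurons there. In the mouse they are among the last cells to arise from the retinal progenitor pool, so that glia taken in the second postnatal week are recently born and still maturing. The comparison described here set the microRNAs (miRNAs) of MG sorted from adult mice against those of MG sorted at postnatal day 11 to 12, called P11 MG below, and asked which miRNAs differ with the age of the glia. All mouse miRNA probes of the panel were taken, and a probe was kept if its raw count lay above background in at least 1 of the 2 MG samples. This left 179 of 566 probes: 141 were above background at both ages, 30 in adult MG only and 8 in P11 MG only.

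Both samples were taken from mice carrying Rlbp-CreER and Stop f/f-tdTomato, in which a tamoxifen-inducible Cre driven by the Rlbp1 promoter turns on the red reporter tdTomato. Tamoxifen was given on the days just before the P11 sort or, for the adult sample, on consecutive days after the third postnatal week, so both groups carried the transgenes and had received the drug. The adult MG were tdTomato+ cells pooled from 40 retinas and the P11 MG tdTomato+ cells pooled from 32 retinas, both collected by fluorescence-activated cell sorting. The tdTomato- cells of the same sorts, called neurons here as in the sample names, were used only for reference. The Rlbp1 promoter is not limited to MG: it also drives Cre in the pigmented epithelium and the ciliary epithelium, tissues that the authors took off by dissection. Each age was 1 pool measured once, so there were no replicates: age, pool and assay run cannot be told apart, and no p-value was computed. In pooled sorted cells, fewer cells of a type and less RNA per cell cannot be told apart either.

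miRNAs are short RNAs that bind mRNAs mainly through the seed, bases 2 to 8 of the mature strand, and lower the stability or translation of those mRNAs. miRNAs with the same seed are grouped into families because they can recognise the same sites. Several families are known for their developmental timing: the let-7, miR-29 and miR-30 families are known from differentiating and mature tissues, while the miR-17-92 cluster and its paralogs, and the miR-15/16 family, are known as regulators of cell proliferation.

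Counts were digital nCounter counts, 1 per probe and sample. Over all miRNA probes the adult MG sample gave 695390 raw counts and the P11 MG sample 484305. The background limit, the mean of the 8 negative control probes plus 2 SD, was 71.7 counts for the adult sample and 106 for the P11 sample. Of the 566 miRNA probes, 171 exceeded it in adult MG and 149 in P11 MG. The positive control probes read 1.16 to 1.34 times higher in the P11 sample. The 4 mRNAs used for scaling, Actb, B2m, Gapdh and Rpl19, summed to 8656 counts in adult MG and 11755 at P11 after background subtraction.

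Levels are given in 2 ways, and they answer different questions. The scaled count is the background-subtracted count set relative to those 4 mRNAs, the scaling that the study used. The share is the percentage of all background-subtracted miRNA counts of the sample, and sets probes side by side as if they counted with equal efficiency. The summed miRNA signal was 1.99-fold higher in adult MG on the scaled counts, and 1.61-fold higher without miR-204. For every miRNA the log2 ratio between the ages (adult over P11) is therefore lower by 0.99 on shares than on scaled counts. Which of these scales is nearer to the amount per cell was not tested. A miRNA was called higher or lower when it differed at least 2-fold and the counting interval of its ratio did not include 1. Intervals in the text cover counting error only, at 95%, and say nothing of the spread between animals.

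On scaled counts, 44 of the 179 miRNAs (24.6%) were called higher in adult MG and 20 (11.2%) lower. By share, 11 (6.15%) were called higher and 65 (36.3%) lower. All 11 of the first set by share were among the 44, and all 20 lower by scaled count were among the 65. The median log2 ratio over the 179 was 0.27 on scaled counts and -0.73 on shares. Of the 44 called higher, 7 were not above background in P11 MG, and of the 20 called lower, 3 were not above background in adult MG. Such probes could pass only through the age at which they were high, and their folds are lower bounds. For ratios, counts below the limit were set to it, and the limit was higher in P11 MG. For probes not above background in P11 MG, a call of lower by share can therefore come from that floor. The 65 include such probes. miR-137, with 78 raw counts in adult MG and 63 at P11, was one, though its share was 0.00581% in adult MG and 0.00273% at P11. Among the 141 miRNAs above background at both ages, 37 were called higher and 17 lower.

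**Figure D1:**
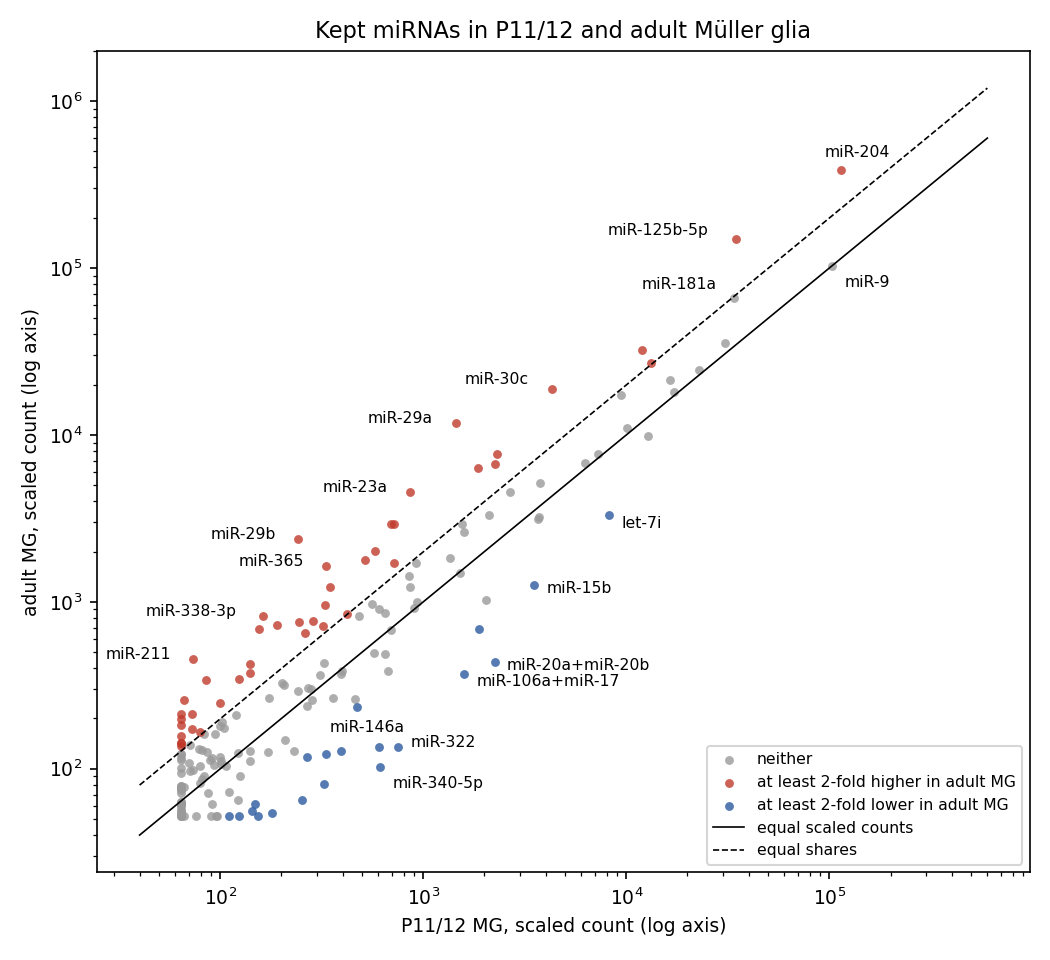
Scaled counts of the 179 kept miRNAs in P11 MG (x axis) and adult MG (y axis), both on log axes, with 1 point per miRNA and values below background drawn at the background level. Red points are the 44 miRNAs called higher in adult MG and blue points the 20 called lower; the solid line marks equal scaled counts and the dashed line equal shares, and miR-29a, miR-29b, miR-211 and miR-23a lie above both lines.

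The mature sequences of several seed families with members called higher in adult MG are shown here because the seed is what the members of a family have in common. Seeds are in capitals, and the sequences and positions are those of RefSeq on the mouse build GRCm38.p6, in which 132 of the 179 kept probes had an entry. They are the miR-29 family, the miR-30 family, miR-204 with its near-copy miR-211, and the miR-125 and miR-99/100 families, in which miR-125a-5p and miR-99b were not called.
miR-29a: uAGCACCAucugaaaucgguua
miR-29b: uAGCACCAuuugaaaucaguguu
miR-29c: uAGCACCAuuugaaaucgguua
miR-30a: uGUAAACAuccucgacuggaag
miR-30c: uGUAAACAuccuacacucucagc
miR-30e: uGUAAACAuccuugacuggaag
miR-204: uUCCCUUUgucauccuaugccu
miR-211: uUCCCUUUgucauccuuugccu
miR-125b-5p: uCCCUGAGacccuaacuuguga
miR-125a-5p: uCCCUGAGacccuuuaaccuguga
miR-99a: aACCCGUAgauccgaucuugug
miR-100: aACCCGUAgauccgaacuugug
miR-99b: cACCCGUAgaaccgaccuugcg

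The miR-17-92 and miR-15/16 types, with members called lower, are shown as a second set because miRNAs with the same seed come from several loci.
miR-17: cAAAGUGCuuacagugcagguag
miR-106a: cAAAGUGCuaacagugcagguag
miR-20a: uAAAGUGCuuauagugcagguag
miR-20b: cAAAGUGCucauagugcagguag
miR-93: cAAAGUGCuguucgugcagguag
miR-106b: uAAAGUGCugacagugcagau
miR-19a: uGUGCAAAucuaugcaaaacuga
miR-19b: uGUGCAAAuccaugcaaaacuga
miR-15a: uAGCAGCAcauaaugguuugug
miR-15b: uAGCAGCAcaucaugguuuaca
miR-16: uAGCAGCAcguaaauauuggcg
miR-322: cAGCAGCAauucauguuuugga
miR-17 and miR-106a were read by 1 probe, as were miR-20a and miR-20b, so that their values cannot be separated.

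A small number of miRNAs made up most of the signal, more so in adult MG. miR-204, which is encoded within Trpm3 (chr19:22750610-22750631, + strand) and is known from the retinal pigmented epithelium, lens and neural retina, was the highest miRNA at both ages. Its raw count was 247414 in adult MG and 99116 in P11 MG. It made up 36.5% of the miRNA signal in adult MG (95% counting interval 36.4 to 36.6) and 21.4% in P11 MG (21.3 to 21.6). In adult MG, 2 miRNAs accounted for 50% of the signal and 19 for 90%, against 4 and 25 in P11 MG. The effective number of miRNAs, the exponential of the Shannon entropy of the shares, was 14.1 in adult MG and 21.6 in P11 MG. Of the net increase in summed scaled counts, miR-204 accounted for 51.6% and miR-125b-5p for 21.5%.

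The order of the abundant miRNAs was largely shared between the ages. Over the 179 kept miRNAs, Spearman's rho between the ages was 0.81, and it was 0.83 over the 141 above background at both ages. These are descriptions across miRNAs of 1 pair of samples. Of the 20 highest miRNAs at each age, 16 were the same. Those found among the 20 highest in adult MG but not in P11 MG were miR-100, miR-22, miR-29a and miR-30d. Those found there in P11 MG but not in adult MG were let-7e, let-7f, let-7i and miR-25.

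**Figure D2:**
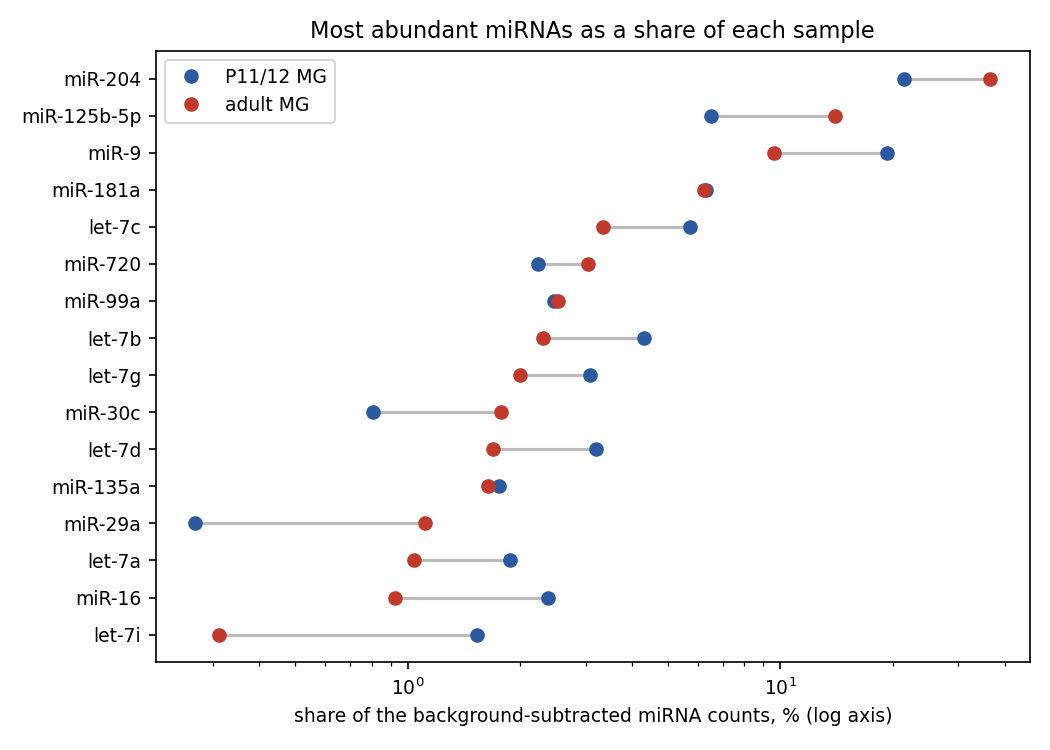
Share of the background-subtracted miRNA counts (x axis, percent, log axis) of each miRNA that was among the 14 highest at either age, with adult MG in red and P11 MG in blue. miR-204 went from 21.4% in P11 MG to 36.5% in adult MG and miR-125b-5p from 6.53% to 14.0%, while miR-9 went from 19.3% to 9.63% and the let-7 miRNAs lay lower in adult MG.

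The largest increases in adult MG were in the miR-29 family, whose known targets include collagen and other extracellular matrix mRNAs and the de novo DNA methyltransferases. All 3 members were called higher on scaled counts and by share, against 24.6% and 6.15% of all kept probes. miR-29a had 7585 raw counts in adult MG and 1297 at P11, an 8.22-fold difference in scaled counts (7.51 to 9.01). It moved from rank 34 to rank 13. miR-29b had 1552 and 260 raw counts, or 9.80-fold (7.81 to 12.5), the highest ratio of the kept miRNAs. miR-29c had 1893 and 672 raw counts, or 4.05-fold (3.50 to 4.70). The family as a whole made up 1.61% of the signal in adult MG and 0.450% in P11 MG, a 7.13-fold difference in summed scaled counts.

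The 3 miR-29 miRNAs come from a pair of clusters, miR-29b with miR-29c on chromosome 1 (chr1:195037091-195037621, + strand) and miR-29a with miR-29b on chromosome 6 (chr6:31062673-31063047, - strand). Ratios between probes of the same sample do not depend on the scaling, and their change with age was used to compare the members. The ratio of miR-29b to miR-29c was 2.42-fold higher in adult than in P11 MG (1.59 to 3.72). The ratio of miR-29a to miR-29b was 0.838 times that in P11 MG, with an interval that included 1 (0.580 to 1.20). Thus miR-29c rose less than its cluster partner, while a difference between miR-29a and miR-29b was not detectable at this depth. The miR-29 family was also higher by share in adult than in P11 neurons, at 2.53% against 0.431%. In the neurons miR-29c was the highest member, with 6565 raw counts in adults, whereas in MG of both ages it was miR-29a, as far as counts of different probes can be compared.

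All 5 measured members of the miR-30 family, known from epithelial and mesenchymal differentiation, were called higher on scaled counts. Over all kept probes 24.6% were called so. miR-30c was the highest of them, with 12121 raw counts in adult MG and 3776 at P11, a 4.40-fold difference (4.16 to 4.67). miR-30a had 1907 and 647 raw counts, or 4.25-fold (3.67 to 4.94). By share, only these 2 of the 5 were called higher, against 6.15% of all kept probes. miR-30d had 4087 and 1655 raw counts (3.43-fold), miR-30e 278 and 171 (2.70-fold), and miR-30b 1127 and 671 (2.38-fold). miR-384-5p, which has the miR-30 seed but another hairpin, was not called, at 84 and 104 raw counts. miR-30c and miR-30e lie together within Nfyc on chromosome 4 (chr4:120769584-120772681, - strand), and miR-30c has a second copy near miR-30a on chromosome 1. The ratio of miR-30c to miR-30e differed 1.63-fold between the ages, with an interval that included 1 (0.962 to 2.71).

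miR-204 and miR-211 have the same seed, and their mature strands are close to identical. miR-204 was 3.39-fold higher in adult MG on scaled counts (3.35 to 3.43) and 1.70-fold higher by share, so that it was called on scaled counts but not by share. miR-211, encoded within Trpm1 (chr7:64205831-64205852, + strand), had 329 raw counts in adult MG and 114 at P11. It was 6.20-fold higher on scaled counts (3.79 to 8.17), and was called higher by share too. Its P11 value lay just above the limit of 106 counts. The neurons had 3772 raw counts of miR-211 in adults and 2680 at P11, and the share in adult MG was 3.84% of the share in adult neurons. miR-204 ran the other way in neurons, at 1.17% of the signal in adults and 2.75% at P11. The ratio of miR-204 to miR-211 was 1.83-fold lower in adult MG (1.05 to 2.48). Cross-reading between these 2 probes was not tested.

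**Figure D3:**
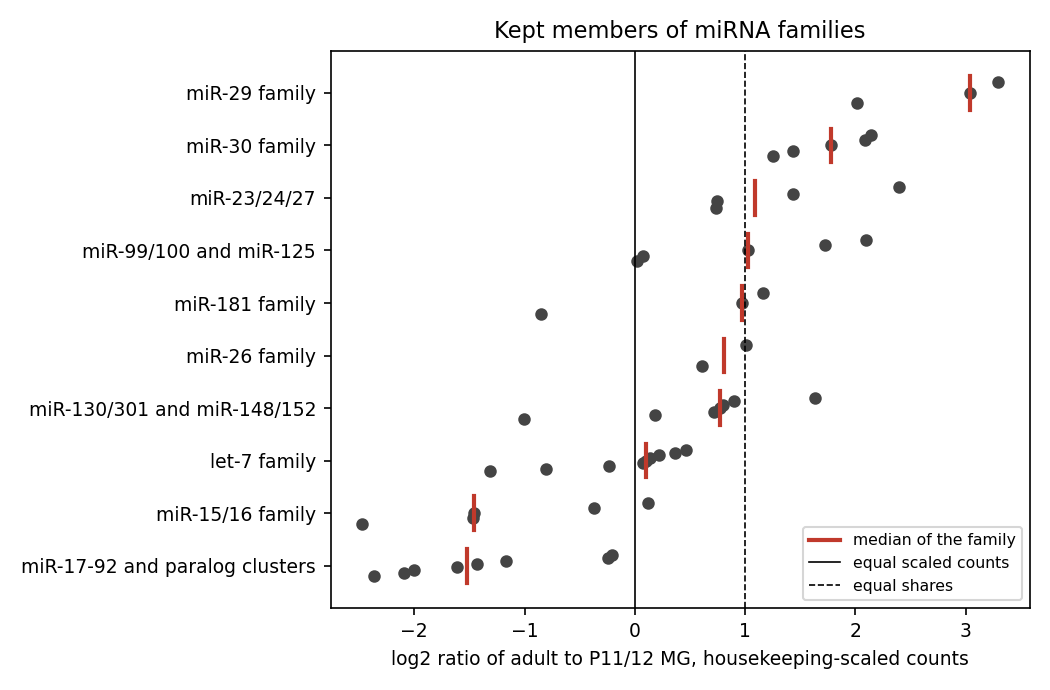
Adult over P11 MG as the log2 ratio of scaled counts (x axis) for the kept members of 10 miRNA families (rows), with 1 point per miRNA and a red bar at the median of the family. Points right of the dashed line were higher in adult MG by share as well. The median lies farthest right for the miR-29 family, at 3.04, and farthest left for the miR-17-92 row, at -1.52, while single members of other rows overlap with these.

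miR-125b-5p, known from neural differentiation and as a regulator of p53 and of cytokine signalling, was the second most abundant miRNA of adult MG. It had 94931 raw counts in adult MG and 30204 at P11, a 4.27-fold difference in scaled counts (4.19 to 4.36). Its share rose from 6.53% to 14.0%, a 2.14-fold difference. The star arm of the same hairpin, miR-125b-3p, went the same way, with 500 and 215 raw counts (3.81-fold). miR-125a-5p, with the same seed but another locus, was not called, at 4921 and 6348 raw counts and a log2 ratio of 0.07. The ratio of miR-125b-5p to miR-125a-5p was 4.06-fold higher in adult MG (3.71 to 4.44). In the neurons miR-125b-5p made up 0.928% of the signal in adults and 1.15% at P11.

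The members of the miR-99/100 family also differed from each other. miR-100 lies in the same host transcript as one copy of miR-125b, Mir100hg on chromosome 9 (chr9:41531437-41531458 and chr9:41581940-41581961, + strand). It had 4910 and 2053 raw counts, or 3.30-fold more in adult MG (3.04 to 3.59). miR-99a lies on chromosome 16 with let-7c and the other copy of miR-125b. It had 17195 and 11476 raw counts, or 2.04-fold (1.96 to 2.12), just past the 2-fold limit and at nearly the same share, 2.53% and 2.47%. miR-99b lies on chromosome 17 next to let-7e and miR-125a (chr17:17830194-17830876, + strand), and none of these 3 was called, with log2 ratios of 0.02 for miR-99b, 0.46 for let-7e and 0.07 for miR-125a-5p. The ratio of miR-100 to miR-99b was 3.25-fold higher in adult MG (2.43 to 4.37).

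miR-99a and its cluster neighbour let-7c did not keep their ratio. That ratio was 1.75-fold higher in adult MG (1.62 to 1.89). let-7c can also come from a second locus on chromosome 15, beside let-7b. The ratio of let-7c to let-7b differed only 1.09-fold (1.02 to 1.17).

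Several single miRNAs were also called higher under both scales. miR-23a, which is known from endothelial cells and astrocytes among others, had 2919 raw counts in adult MG and 794 at P11, a 5.26-fold difference (4.63 to 5.98). Its cluster partners on chromosome 8, miR-27a and miR-24, were not called. miR-27a had 944 and 789 raw counts and miR-24 had 122 and 118. The ratio of miR-23a to miR-27a was 3.16-fold higher in adult MG (2.29 to 4.37). miR-365 had 1089 and 337 raw counts, or 4.98-fold (4.02 to 6.20). miR-193b, beside one of its 2 copies on chromosome 16, was close to background, at 89 and 70 raw counts. miR-1968 had 479 and 185 raw counts, or 4.44-fold (3.18 to 6.33).

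miR-338-3p lies within Aatk (chr11:120014781-120014802, - strand) and is known from differentiating oligodendrocytes and neurons. It had 565 raw counts in adult MG and 190 at P11, or 5.12-fold (3.73 to 7.18). The other arm of its hairpin, miR-338-5p, had 77 raw counts at both ages and was below background at P11. miR-219, the other oligodendrocyte miRNA of the list, was not above background at either age. In neurons miR-338-3p made up 0.0708% of the signal in adults and 0.0417% at P11, close to its shares in MG of 0.0776% and 0.0302%.

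miRNAs of the miR-17-92 cluster on chromosome 14 (chr14:115043684-115044380, + strand) and of its paralogs on chromosomes X and 5 were lower in adult MG. Of the 12 probes listed for these clusters and their seeds, 8 were kept, 6 were called lower on scaled counts and all 8 by share, against 11.2% and 36.3% of all kept probes. One of the 8, miR-92b, had 73 and 86 raw counts and was not above background at P11. Its call by share rested on the background floor there. The other 4 were not above background at either age. miR-20a+miR-20b had 316 raw counts in adult MG and 1991 at P11, a 5.15-fold decrease in scaled counts (4.24 to 6.30). It dropped from rank 25 to rank 65. miR-106a+miR-17 had 275 and 1418 raw counts, or 4.26-fold lower (3.43 to 5.34). miR-19a had 120 and 389 raw counts (3.06-fold lower) and miR-19b 117 and 337 (2.69-fold lower).

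The paralog cluster miR-106b, miR-93 and miR-25 lies within Mcm7 (chr5:138165332-138165807, - strand), a gene for a subunit of the replicative helicase. Its members did not keep their ratios. miR-106b had 90 and 330 raw counts, or 4.01-fold lower in adult MG (2.36 to 7.19), and miR-93 had 114 and 281, or 2.25-fold lower (1.41 to 3.77). miR-25, with another seed, had 2080 and 3250 raw counts and a log2 ratio of -0.21 on scaled counts. It was called lower only by share. The ratio of miR-106b to miR-25 was 3.47-fold lower in adult MG (1.75 to 7.0). The ratio of miR-106b to miR-93 had an interval that included 1 (0.183 to 1.80).

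The 4 kept probes with the seed AAAGUGC, those for miR-20a+miR-20b, miR-106a+miR-17, miR-93 and miR-106b, were all called lower. On scaled counts 11.2% of all kept probes were called lower. The 4 probes made up 0.0944% of the signal in adult MG and 0.826% in P11 MG, and their summed scaled counts were 4.39-fold lower in adults. The same probes were lower with age in the neurons. miR-20a+miR-20b had 395 raw counts in adult neurons and 2469 at P11, or 0.108% and 0.950% of the signal.

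The miR-15/16 family was lower in adult MG in part. miR-15b, within Smc4 on chromosome 3, had 847 raw counts in adult MG and 3089 at P11, or 2.77-fold lower (2.45 to 3.13). miR-15a, within Dleu2 on chromosome 14, had 475 and 1678 raw counts, or 2.75-fold lower (2.32 to 3.26). miR-16, which is made from both loci, had 6325 and 11079 raw counts and was not called on scaled counts, with a log2 ratio of -0.37. By share it was lower, at 0.927% and 2.39%. The ratio of miR-15a to miR-16 was 2.13-fold lower in adult MG (1.67 to 2.72), and that of miR-15b to miR-16 was 2.14-fold lower (1.77 to 2.6). The partner miR-195 was not called, at 96 and 122 raw counts.

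miR-322, the mouse miRNA called miR-424 in humans, has the same seed and lies on chromosome X near miR-450a (chrX:53048206-53054327, - strand). It had 125 raw counts in adult MG and 700 at P11, or 5.54-fold lower (3.83 to 8.36). miR-450a-5p had 65 raw counts in adult MG, below the limit, and 183 in P11 MG, and was at least 2.96-fold lower. miR-542-5p of the same stretch was near the limit at both ages, at 88 and 106 raw counts.

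Outside these families, miR-340-5p had the lowest ratio, with 104 raw counts in adult MG and 580 at P11, a 5.97-fold decrease (3.87 to 9.84). It lies within Rnf130 on chromosome 11 (chr11:50069720-50069741, + strand). The other arm, miR-340-3p, had 80 and 156 raw counts and was lower by 0.91 on the log2 scale, short of the 2-fold limit. miR-146a, a known inhibitor of the NF-kB pathway that is induced by inflammatory signals, had 125 and 576 raw counts, or 4.48-fold lower (3.06 to 6.84). Its seed partner miR-146b was close to background, at 87 and 88 raw counts. miR-709 was lower as well, at 80 and 270 raw counts.
miR-340-5p: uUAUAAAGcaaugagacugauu
miR-146a: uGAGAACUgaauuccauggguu
These 2 sequences are shown because their seeds are not shared with any other miRNA called lower.

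Other abundant miRNAs were near equality on 1 of the 2 scales or were called on 1 only. miR-9, a neural miRNA known from progenitors and glia, had 65337 raw counts in adult MG and 89452 at P11. Its scaled counts were 102434 and 103270, a log2 ratio of -0.01, while its share was 9.63% and 19.3%, a 2.01-fold decrease. The ratio of miR-204 to miR-9, which depends on no scale, was 3.42-fold higher in adult MG (3.31 to 3.53). The study counted both among the miRNAs particular to MG, and they did not change together. miR-181a had 42317 and 29255 raw counts, a log2 ratio of 0.98 on scaled counts and nearly the same share, 6.23% and 6.32%. miR-720 had 20736 and 10414 raw counts (2.71-fold) and shares of 3.05% and 2.24%; its human counterpart is regarded as a tRNA fragment. miR-135a was close to miR-181a in its pattern, with 11150 and 8193 raw counts and shares of 1.64% and 1.76%.

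The let-7 family is known for its rise during differentiation. Of its 9 members on the panel, counting miR-98, none was called higher and 1 lower on scaled counts, and none higher and 3 lower by share. The counts of lower calls were near those over all kept probes, of which 11.2% were called lower on scaled counts and 36.3% by share. Of all kept probes, 24.6% were called higher on scaled counts and 6.15% by share. miR-1961, which has the let-7 seed but another hairpin, was not counted among the 9. It had 258 raw counts in adult MG and 157 at P11, and was called higher on scaled counts (2.79-fold) but not by share. The family made up 11.5% of the signal in adult MG and 21.2% in P11 MG, at nearly equal summed scaled counts (1.08-fold). let-7c, the highest member, had 22705 raw counts in adult MG and 26463 at P11, and let-7b had 15661 and 19881.
let-7c: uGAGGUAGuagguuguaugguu
let-7i: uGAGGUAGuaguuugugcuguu
let-7i, shown here beside the most abundant member because it stood apart from it, had 2148 and 7160 raw counts, or 2.48-fold lower in adult MG (2.30 to 2.68). It was named after its values were seen. The ratio of let-7i to let-7a was 2.73-fold lower in adult MG (2.37 to 3.15), whereas that of let-7d to let-7a did not differ beyond counting error (0.867 to 1.06). In the neurons the share of let-7i was 0.351% in adults and 1.5% at P11.

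The miR-181 family was not uniform either. miR-181c had 496 and 327 raw counts and was called higher (2.24-fold), while the shared probe for miR-181b and miR-181d had 120 and 250 raw counts and a log2 ratio of -0.85. The ratio of miR-181a to miR-181b+miR-181d was 3.55-fold higher in adult MG (2.04 to 6.45). miR-181a and miR-181b are made from the same pair of clusters on chromosomes 1 and 2.

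The imprinted miRNA region of chromosome 12 held 11 kept miRNAs in its 2 stretches, all at low counts, of which 2 were called higher and 1 lower on scaled counts, near the 24.6% and 11.2% of all kept probes. By share 0 were called higher and 5 lower. Among the 5, miR-329 and miR-539 were not above background at P11, so that the background floor set their ratios. miR-329 had a share of 0.00595% in adult MG and 0.00425% at P11. miR-136 had 203 raw counts in adult MG and 108 at P11, and was 3.87-fold higher (2.18 to 4.87). The P11 count of miR-136 lay just above the limit of 106, and the background floor set the upper end of its interval. miR-154 had 138 and 82 raw counts and miR-376a 46 and 157, so that each was below background at 1 of the ages.

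For some hairpins the 2 arms had different ratios. miR-335-5p, within Mest on chromosome 6, had 2921 and 2355 raw counts, and miR-335-3p had 78 and 178. The ratio of the 5p to the 3p arm was 4.05-fold higher in adult MG (1.69 to 6.85). For miR-142 the 3p arm had 73 and 205 raw counts and the 5p arm 226 and 259. The ratio of the 3p to the 5p arm was 4.04-fold lower in adult MG (1.24 to 7.83). For miR-125b, by contrast, the ratio of the arms differed 1.12-fold, with an interval that included 1 (0.768 to 1.61). The adult counts of miR-335-3p and miR-142-3p lay just above the limit of 71.7. In the same sample 2 probes for viral miRNAs read 79 and 91, so these 2 adult values cannot be told from background.

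Among miRNAs known from stress responses, miR-210, the miRNA of hypoxia, had 695 raw counts in adult MG and 1821 at P11. Its log2 ratio of -0.99 lay just short of the 2-fold limit on scaled counts, and by share it was lower, at 0.0968% against 0.383%. miR-21, known from reactive glia, had 349 and 613 raw counts and a log2 ratio of -0.42. The called changes nearest to the 2-fold limit were miR-26b, with a log2 ratio of 1.01, and miR-130b, with -1.0. Just outside it were miR-181a at 0.98 and miR-210 at -0.99. At the background limit, miR-369-3p was just inside in adult MG with 72 raw counts, and miR-542-5p just inside in P11 MG with 106.

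Most miRNAs listed as marks of other cell types were at background or had a small share in both MG samples. miR-124, the most abundant neuronal miRNA of the retina, had 1211 raw counts in adult MG and 1220 at P11, against 103107 and 37741 in the neurons of the same ages. Its share in MG was 0.562% of that in neurons in adults and 1.71% at P11. The photoreceptor miRNAs miR-183 and miR-96 had 353 and 285 raw counts in adult MG and 543 and 629 in P11 MG. Relative to the neurons, their shares were 0.458% and 0.414% in adults and 2.26% and 1.96% at P11. The third member, miR-182, was below background in both MG samples. Of 11 neuronal miRNAs 4 were kept, and none of them was called on scaled counts. Over all kept probes 24.6% were called higher and 11.2% lower. The 11 together made up 0.249% of the signal in adult MG and 0.368% in P11 MG. Of these, miR-129-3p and miR-132 lay closer to the neurons than miR-124 did. miR-129-3p had 313 raw counts in adult MG and 330 at P11, against 2950 and 388 in neurons, and its share in MG was 4.65% of that in neurons in adults and 44.7% at P11. For miR-132 the share in MG was 7.49% and 15.9% of that in neurons.

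Of the 3 pigmented epithelium miRNAs only miR-211 was kept, and of 2 endothelial ones only miR-126-3p, with 208 and 360 raw counts. Of 4 myeloid miRNAs, miR-142-5p and miR-142-3p were kept, miR-142-3p was called lower in adult MG, and miR-223 and miR-155 were at background at both ages. None of the 3 red blood cell miRNAs and none of the 5 mural miRNAs was above background at either age. The part of carried-over neuronal RNA in the values of MG was not tested. Among the cell type lists with a kept probe, the summed share was larger in P11 than in adult MG for neurons, photoreceptors, endothelium and myeloid cells. It was larger in adult MG for pigmented epithelium (0.0473% against 0.0138%), oligodendrocytes (0.0776% against 0.0302%) and muscle (0.0262% against 0.0193%). By share, 135 of the 179 kept probes had a ratio of adult to P11 MG below 1.

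**Figure D4:**
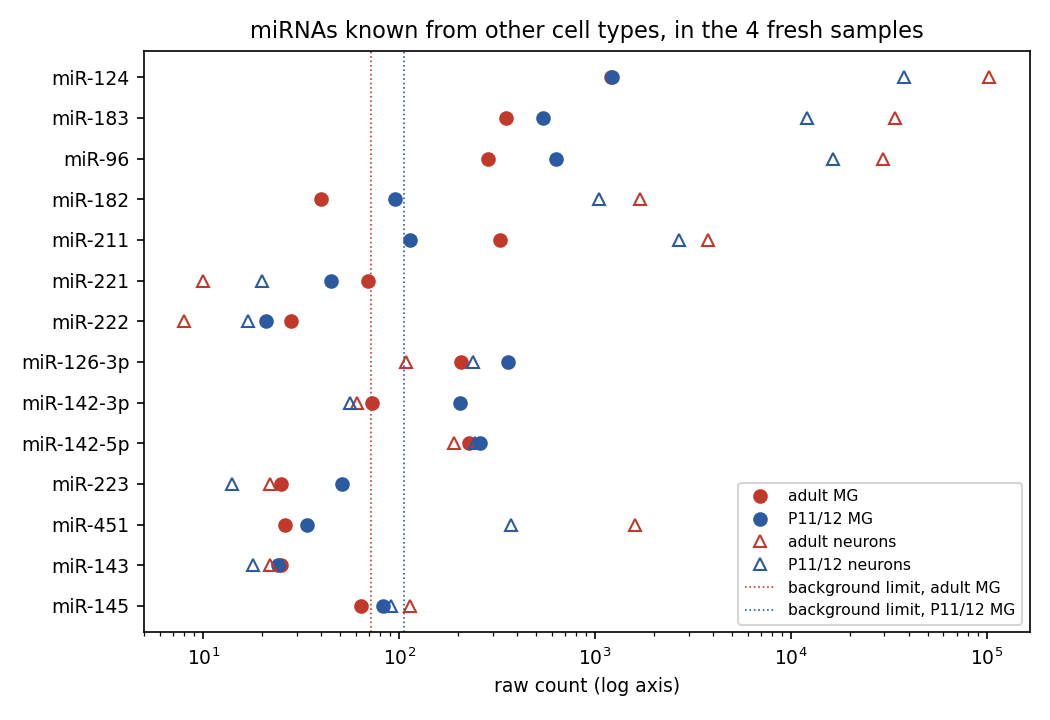
Raw counts (x axis, log axis) of miRNAs known from neurons, photoreceptors, pigmented epithelium, endothelium, myeloid, red blood and mural cells in the 4 fresh samples, with filled circles for MG, open triangles for neurons, red for adult and blue for P11. Dotted lines mark the background limits (71.7 counts in adult MG, 106 in P11 MG); miR-124 lay at 1211 and 1220 counts in the MG samples, far left of the neurons.

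The counts were most precise for abundant miRNAs. Of the 62 kept miRNAs with at least 500 background-subtracted counts at either age, 21 were called higher and 8 lower on scaled counts, and 9 higher and 17 lower by share. Of the 179, 58 had under 100 background-subtracted counts at both ages, and for these the counting intervals were wide. Under every scaling tried, 11 miRNAs stayed called higher: the 3 miR-29 miRNAs, miR-30a, miR-30c, miR-125b-5p, miR-211, miR-23a, miR-338-3p, miR-365 and miR-1968. Likewise 13 stayed called lower: miR-20a+miR-20b, miR-106a+miR-17, miR-106b, miR-19a, miR-19b, miR-15a, miR-15b, miR-322, miR-450a-5p, miR-340-5p, miR-146a, miR-142-3p and miR-709.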

How the data were processed

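Sorted MG and tdTomato- cells were assayed with a NanoString nCounter panel for mouse miRNAs, which tags mature miRNAs by ligation and counts them without amplification. The deposited raw counts had not been normalized by the authors. The deposited normalized values, of unit score here because they are scaled counts, had been corrected by the authors for controls and for 4 mRNAs. For adult and P11 MG they matched the rebuilt values for all 566 probes, within 1 count or 1%, with 0 off.

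From the raw counts, the mean of the 8 negative control probes was subtracted per sample. Values were floored at 2 SD of those probes and divided by the summed background-subtracted Actb, B2m, Gapdh and Rpl19. Ratio intervals used exact Poisson limits on both raw counts, with an error of 0.05 shared over the 2 counts, or over the 4 counts where ratios of 2 miRNAs were compared. Those limits were floored like the values. The calling was tested on simulated counts with counting error only, and only for the more abundant miRNAs. That test does not cover low counts or the spread between pools. Tools were Python 3.11.15, pandas 2.3.3, numpy 2.4.6 and scipy 1.17.1. The members and the miRNA lists were chosen with earlier results of these data known. Probe names without an arm were given the arm that was the guide under the older naming.

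Named miRNAs were the 12 largest called ratios each way with at least 100 counts, the 12 highest shares, the 8 largest rank changes each way, up to 4 members of each list, seed or cluster, their other arms, and the 5 calls nearest the limit. Some miRNAs were named outside these rules, with their values seen. Among them were let-7i, miR-22, miR-195, miR-182, miR-193b, miR-146b, miR-539, miR-1961, miR-425, miR-1224 and miR-1927. Alternatives changed the scaling, the background limit, the fold and the subtraction. The cultured samples entered only the common constant of the scaled counts, the mean summed mRNA signal of the adult, P11 and both cultured MG samples, which cancels in every ratio.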

Additional observations from a re-analysis of the deposited data

Results flagged for a closer look

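By share, 3 miRNAs moved at least 2-fold in opposite directions with age in MG and in the tdTomato- neurons. The log2 ratio of adult to P11 for miR-425 was -1.13 in MG and 1.35 in neurons. For miR-1224 it was -1.17 and 1.14. For miR-183, of the photoreceptor cluster, it was -1.20 and 1.10. With 1 pool per group these differences were not tested. On scaled counts none of the 3 was called in MG, with log2 ratios of -0.13, -0.18 and -0.21 in the same order. The median log2 ratio by share over all kept probes in MG was -0.73.

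The panel also carries 33 probes for viral miRNAs, whose median raw count was 42.0 in adult MG and 52.0 in P11 MG. Of these, 2 were above the limit of 71.7 in adult MG, with 79 and 91 raw counts, and 0 in P11 MG.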

How the results depend on the processing

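No paired analysis was possible because each age was 1 pool. The counts of calls, 44 higher and 20 lower on scaled counts, moved with the scaling. Equal totals gave 11 higher and 65 lower, and equal totals without miR-204 gave 21 and 39. Equal geometric means of the 100 highest miRNAs gave 29 higher, and B2m alone gave 68 higher and 13 lower. Without background subtraction 13 were lower, and a 3-fold limit left 24 higher and 9 lower. The other alternatives stayed within 1.5 times. The deposited values gave the same 44 and 20 miRNAs. Depth limits the 58 miRNAs with under 100 counts at both ages, and the single pool per age limits all values.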

Other observations

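The kept probes were also grouped, after their values were seen, by whether the miRNA has a late registry number, of 1000 or more. Of 29 such probes, 14 were called higher in adult MG and 1 lower on scaled counts, with a median log2 ratio of 0.94. Of the 150 others, 30 were called higher and 19 lower, with a median of 0.24. By share the late-numbered probes gave 1 higher and 7 lower, against 10 and 58 for the others. The most abundant of the 14 was miR-1927, with 1331 raw counts in adult MG and 548 at P11. The difference between the groupings was not tested.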
